A study of Mus musculus with 3 samples.

Results

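The *Gimap* genes encode the GTPases of the immunity-associated protein (GIMAP) family. Described here are the 8 mouse members *Gimap1*, *Gimap3*, *Gimap4*, *Gimap5*, *Gimap6*, *Gimap7*, *Gimap8* and *Gimap9*, chosen by symbol from the 31053 genes of the feature table. All 8 were detected in each of 3 single-cell RNA libraries. Naïve-enriched CD4+ T cells came from the spleens of C57BL/6 mice, and live 7AAD-CD3+CD4+ cells were sorted. One library held unstimulated cells of *Ift20* f/f mice given only DPBS, a buffered saline (unstimulated WT). One held *Ift20* f/f cells after 24 h with antibodies against CD3 and CD28, each at 1 μg/mL (stimulated WT). The third held cells of *Ift20* f/f CD4 cre mice, which lack *Ift20* where *Cd4*-driven Cre is active, given the same antibodies for the same time (stimulated IFT20-KO). All 3 libraries carry the floxed *Ift20* alleles, and the study's methods give male mice of 5 to 10 weeks. The Cre was not carried by the control mice, and no unstimulated IFT20-KO library was analysed here. By its label the unstimulated library was taken at the start, without the 24 h that both stimulated libraries had. No library of cells kept for 24 h without the antibodies was analysed here. The part of time in culture in the differences after stimulation was thus not tested.

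GIMAP proteins share a guanine nucleotide-binding domain and are found mainly in lymphocytes, where several sit on membranes of the Golgi, lysosomes, mitochondria or lipid droplets. Rats and mice without functional GIMAP5 lose most of their peripheral T cells, and the T cells that remain do not hold the resting state. Other members have been tied to lymphocyte survival, cell death and autophagy, and the mouse genes lie side by side on chromosome 6.

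After barcodes with more than 200 genes and under 15% mitochondrial unique molecular identifiers (UMIs) were kept, 8031 cells remained in unstimulated WT, 9903 in stimulated WT and 13920 in IFT20-KO. The median depth was 4627, 12167 and 5014.5 UMIs per cell, respectively. Levels are given as UMIs of a gene per 1000000 kept UMIs of the library (CPM), with the exact 95% Poisson interval in brackets. A UMI stands for 1 captured transcript and is not scaled by gene length. With 1 library per group there is no replicate check, so no test between groups was possible, and every interval covers counting error only. *Ift20*, the targeted gene, stood at 64.4 CPM in unstimulated WT, 76.0 CPM in stimulated WT and 6.60 CPM in IFT20-KO cells. T cell markers (*Cd3d*, *Cd3e*, *Cd3g*, *Cd4*, *Trac* and *Trbc2*) had a UMI in between 57.5% and 94.6% of cells. Of 5 myeloid genes, *Cd14* was at 0 in all 3 libraries, *Lyz2*, *Csf1r* and *Itgam* were under 1 CPM in each, and *Cst3* had a UMI in 29.1%, 53.3% and 39.7% of cells. The CD8 T cell gene *Cd8b1* had a UMI in 10.8%, 8.06% and 6.80% of cells and *Cd8a* in at most 0.208%. Their part in the values below was not tested. A cell type in these sorts that should lack GIMAP transcripts, and so would show the background of free RNA, was not found. Between 114 and 197 kept cell barcodes were shared by a pair of libraries.

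The 8 members spanned 124 kb, chr6:48647234-48770851 in GRCm38, in the order *Gimap8*, *Gimap9*, *Gimap4*, *Gimap6*, *Gimap7*, *Gimap1*, *Gimap5* and *Gimap3*. *Gimap6* and *Gimap3* lie on the reverse strand and the other 6 on the forward strand. The promoter windows of 4 members are printed because their genes had the lowest pooled ratio of stimulated to unstimulated level (*Gimap8*), the only ratio above 1 (*Gimap5*), or the 2 motif matches found (*Gimap7* and *Gimap3*). Each window is RefSeq sequence of GRCm38.p6 from 250 bases before to 50 bases after an annotated start, 5′ to 3′ on the strand of the gene, and capitals mark a motif match.
Gimap8 (chr6:48646984-48647283, forward strand): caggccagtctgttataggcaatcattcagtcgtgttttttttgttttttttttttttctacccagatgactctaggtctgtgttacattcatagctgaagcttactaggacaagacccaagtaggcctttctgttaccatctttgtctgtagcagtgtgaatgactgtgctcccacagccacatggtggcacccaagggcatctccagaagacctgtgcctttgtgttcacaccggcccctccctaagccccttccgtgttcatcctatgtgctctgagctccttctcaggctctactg
Gimap5 (chr6:48745947-48746246, forward strand): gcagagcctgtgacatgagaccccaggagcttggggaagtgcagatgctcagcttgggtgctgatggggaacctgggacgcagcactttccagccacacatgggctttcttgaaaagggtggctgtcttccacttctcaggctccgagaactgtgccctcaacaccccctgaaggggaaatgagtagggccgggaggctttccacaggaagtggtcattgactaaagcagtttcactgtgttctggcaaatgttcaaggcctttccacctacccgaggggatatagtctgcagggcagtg
Gimap7 (chr6:48718371-48718670, forward strand): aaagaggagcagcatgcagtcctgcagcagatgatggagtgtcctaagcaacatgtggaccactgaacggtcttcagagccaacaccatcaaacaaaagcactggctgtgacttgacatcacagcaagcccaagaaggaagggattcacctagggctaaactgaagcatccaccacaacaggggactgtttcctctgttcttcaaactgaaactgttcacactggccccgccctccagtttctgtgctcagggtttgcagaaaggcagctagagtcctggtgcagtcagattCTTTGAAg
Gimap3 (chr6:48770802-48771101, reverse strand): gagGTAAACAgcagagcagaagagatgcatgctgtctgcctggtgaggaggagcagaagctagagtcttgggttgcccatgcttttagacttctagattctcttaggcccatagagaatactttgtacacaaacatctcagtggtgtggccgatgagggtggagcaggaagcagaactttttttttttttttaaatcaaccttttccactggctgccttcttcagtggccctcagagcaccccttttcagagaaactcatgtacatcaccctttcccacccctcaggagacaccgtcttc

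The windows of all 8 members, 9 in number because *Gimap8* has a pair of annotated starts, were searched on both strands for 5 motifs of T cell factors. The FOXO letters GTAAACA occurred once, in the *Gimap3* window 247 bases before the start. The TCF/LEF letters CTTTGAA occurred once, in the *Gimap7* window 43 bases after the start. The ETS letters CCGGAAG, the KLF letters CCACACCC and the RUNX letters TGTGGTT were in none of the 9. Among all 32851 promoter windows of the same length, these 5 motifs were found in 3.65% (FOXO), 5.14% (TCF/LEF), 8.86% (ETS), 3.56% (KLF) and 5.27% (RUNX). The windows of *Gimap5* and *Gimap8*, the members with the highest and the lowest pooled ratio, held none of the 5 motifs. The *Gimap5* window had 55.7% G and C bases and the upstream *Gimap8* window 48%, against a median of 52.7% over all windows.

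In unstimulated WT cells, GIMAP transcripts made up 2229 CPM [2214, 2244], and 98.7% of cells had at least 1 UMI of a member. The family level was 1334 CPM [1328, 1341] in stimulated WT and 1202 CPM [1196, 1209] in stimulated IFT20-KO cells. *Gimap3*, whose product resides on the mitochondrial outer membrane, was the highest of the 8 in every library. In unstimulated WT cells it was followed by *Gimap6*, *Gimap4*, *Gimap1* and *Gimap9*. *Gimap5*, *Gimap8* and *Gimap7* closed that order with neighbouring intervals that overlapped, at 107, 105 and 101 CPM. In stimulated WT cells *Gimap5* stood next behind *Gimap3* and *Gimap1*, and *Gimap8* was the lowest, with no overlap between neighbours. The order in IFT20-KO cells was that of stimulated WT except that *Gimap8* and *Gimap7* changed places.

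*Gimap5* alone had a higher CPM after stimulation. It stood at 107 CPM [104, 110] in unstimulated WT, 226 CPM [223, 229] in stimulated WT and 198 CPM [196, 201] in IFT20-KO cells. Both stimulated libraries were thus above the unstimulated one, by 2.12-fold in WT (log2 ratio 1.08 [1.03, 1.13]). Its share of all GIMAP UMIs was 4.79% before stimulation, 16.9% in stimulated WT and 16.5% in IFT20-KO cells. *Gimap5* UMIs were found in 34.8% of unstimulated WT, 70.2% of stimulated WT and 55.7% of IFT20-KO cells. After every cell was thinned to 1400 UMIs, which left out 801 unstimulated WT and 421 stimulated WT cells, the shares were 13.6%, 23.7% and 20.5%. The stimulated libraries were thus above the unstimulated one at equal depth too, with a smaller distance between WT and IFT20-KO cells.

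*Gimap8*, which encodes the longest GIMAP protein, with several GTPase domains, had the lowest pooled ratio of the 8. Its level was 105 CPM [101, 108] in unstimulated WT, 30.8 CPM [29.8, 31.8] in stimulated WT and 33.9 CPM [32.8, 35.0] in IFT20-KO cells. The unstimulated level was 3.40-fold that of stimulated WT (log2 ratio -1.76 [-1.83, -1.70]). *Gimap8* was also the only member with fewer UMIs per cell after stimulation (log2 ratio -0.41). In cells thinned to equal depth its ratio was -1.30 and that of *Gimap4*, at -1.37, was the lower one. *Gimap4* was also lower than *Gimap8* among cells with 1500 to under 3000 UMIs (-1.76 and -0.45) and with 3000 to under 6000 UMIs (-1.15 and -0.71).

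In 3 further members the stimulated WT level was lower by more than 2-fold. *Gimap4*, which encodes a protein that speeds the death of T cells, stood at 395 CPM [389, 402] in unstimulated WT, 164 CPM [162, 166] in stimulated WT and 108 CPM [106, 110] in IFT20-KO cells (log2 ratio of stimulated to unstimulated WT -1.27 [-1.30, -1.24]). *Gimap7*, whose product can stimulate the GTPase activity of other family members, stood at 101 CPM [97.4, 104], 42.2 CPM [41.0, 43.4] and 31.2 CPM [30.1, 32.3] in the same order (log2 ratio -1.25 [-1.32, -1.19]). *Gimap6*, whose product binds the ATG8-like protein GABARAPL2 and takes part in autophagy, stood at 469 CPM [462, 476], 210 CPM [207, 212] and 190 CPM [188, 193] (log2 ratio -1.16 [-1.19, -1.13]). The *Gimap7* ratio was -0.998 in thinned cells and as the mean of per-cell fractions, just short of 2-fold. There 3 members in place of 4 were lower by 2-fold or more, and the share of all genes past 2-fold was not counted. In all 3 genes the unstimulated library was the highest and the IFT20-KO library the lowest.

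The other 3 members differed less. *Gimap3* stood at 587 CPM [579, 595] in unstimulated WT, 312 CPM [309, 315] in stimulated WT and 293 CPM [290, 296] in IFT20-KO cells (log2 ratio of stimulated to unstimulated WT -0.91 [-0.94, -0.89]). *Gimap1*, whose product is needed for mature B and T cells to survive, stood at 339 CPM [333, 345], 247 CPM [244, 250] and 247 CPM [244, 250] (log2 ratio -0.46 [-0.49, -0.43]). *Gimap9* stood at 126 CPM [122, 130], 103 CPM [101, 105] and 101 CPM [98.6, 102] (log2 ratio -0.29 [-0.34, -0.24]). For *Gimap1* and *Gimap9* the intervals of both stimulated libraries overlapped. At 1400 UMIs per cell, the share of cells with a UMI was lower in both stimulated libraries for all 7 members other than *Gimap5*. *Gimap3* was found in 55.2% of unstimulated WT, 35.1% of stimulated WT and 34.9% of IFT20-KO cells, and *Gimap4* in 42.0%, 18.6% and 13.7%.

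**Figure D1:**
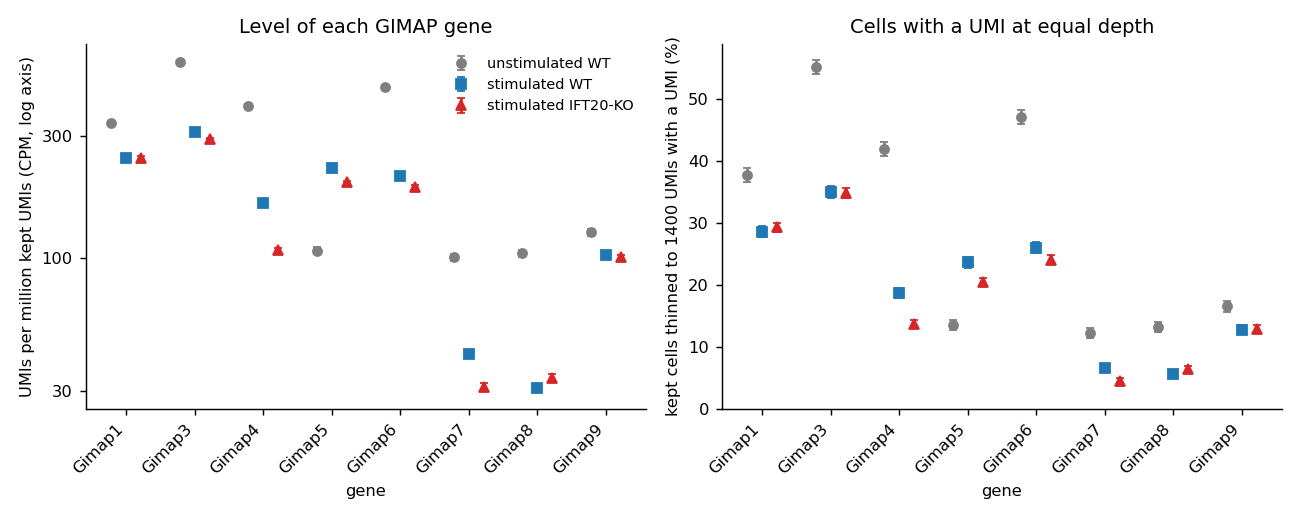
Left, CPM (log axis) of each of the 8 members in each of the 3 libraries, with exact 95% Poisson intervals. Right, the percentage of kept cells with a UMI of the gene after thinning to 1400 UMIs per cell, with exact Clopper-Pearson intervals. *Gimap5* is the only member whose stimulated points lie above the unstimulated one in both panels.

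Over the comparison of stimulated with unstimulated WT cells, 4 of the 8 members were lower by 2-fold or more (*Gimap4*, *Gimap6*, *Gimap7* and *Gimap8*), against 23.0% of the 13297 genes that had 10 or more UMIs when both libraries were added. One member, *Gimap5*, was higher by 2-fold or more, against 19.3% of all genes. Its log2 ratio was 0.93 both in thinned cells and as the mean of per-cell fractions, short of 2-fold. The median log2 ratio was -1.04 over the 8 members and -0.09 over all genes. The direction depends on the scale: counted as UMIs per cell, with no correction for the larger UMI total of stimulated WT cells, 7 members were higher after stimulation (log2 ratios from 0.08 for *Gimap4* to 2.43 for *Gimap5*) and *Gimap8* alone was lower. On that scale the median of all genes was 1.26. The change of scale shifts all genes by the same amount, so the count of members below that median, 7 of 8, could not differ. By UMIs per cell, 58.5% of all genes were higher by 2-fold or more, against 2 members, *Gimap5* and *Gimap9*. A GIMAP transcript other than *Gimap5* thus took a smaller share of the UMIs of stimulated WT cells. UMIs per cell, not corrected for the depth of each library, were higher for 6 of the 7. The number of transcripts in a cell was not measured.

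**Figure D2:**
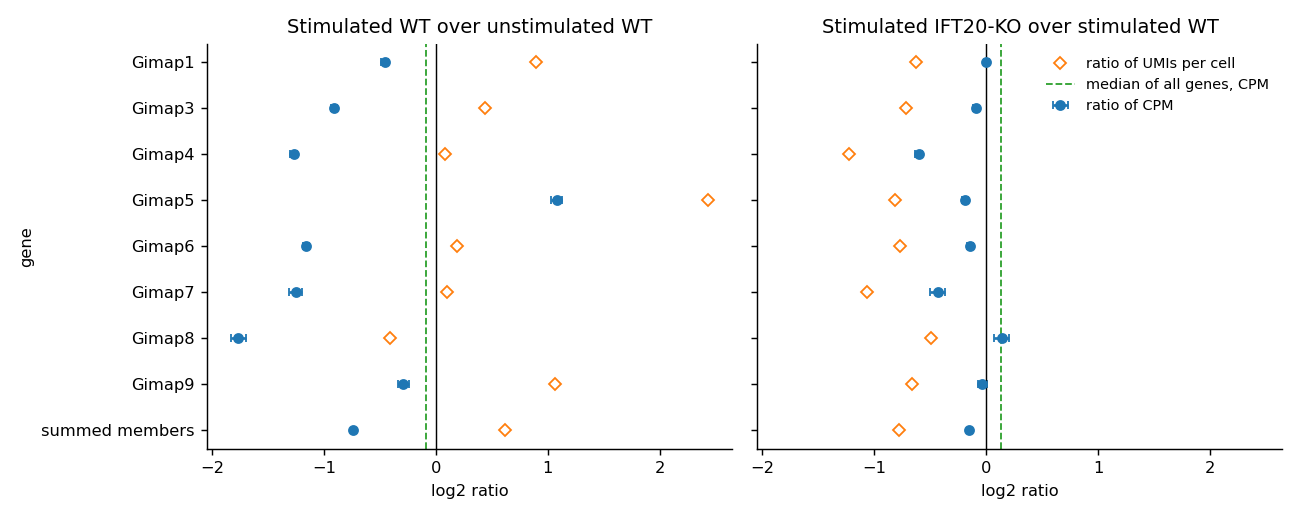
Log2 ratios of each member and of the summed members on the CPM scale (filled points, with exact 95% intervals) and on the scale of UMIs per cell (open diamonds), for stimulated WT over unstimulated WT cells (left) and IFT20-KO over WT cells (right). The dashed line is the median of all genes on the CPM scale. Left, 7 members are below 0 in CPM and 1 in UMIs per cell, and right, all 8 are below 0 in UMIs per cell. In UMIs per cell the median of all genes, not drawn, is 1.26 (left) and -0.49 (right).

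IFT20-KO and WT cells were compared after 24 h of stimulation to ask whether the level of the family differed without *Ift20*. None of the 8 members differed by 2-fold or more, where 1.67% of 13504 genes were lower and 3.92% higher by that much. The median log2 ratio was -0.12 over the members and 0.14 over all genes, and 7 of the 8 lay below the median of all genes. *Gimap4* differed the most, with 164 CPM in WT and 108 CPM in IFT20-KO cells (log2 ratio -0.60 [-0.64, -0.57], which is -0.74 once that median is subtracted). *Gimap7* followed, with 42.2 CPM in WT and 31.2 CPM in IFT20-KO cells (log2 ratio -0.43 [-0.50, -0.37], and -0.57 likewise). *Gimap5* had a log2 ratio of -0.19 [-0.21, -0.16] and *Gimap6* of -0.14 [-0.17, -0.11]. For *Gimap1*, at 0.00 [-0.02, 0.03], and *Gimap9*, at -0.03 [-0.07, 0.00], the interval included 0. *Gimap8* was the only member with a ratio above 0 beyond counting error in CPM, at 0.14 [0.07, 0.21], which equals the median of all genes to 2 decimals, and it was below 0 as UMIs per cell (-0.49). As UMIs per cell all 8 members were lower in IFT20-KO cells, on a scale where the median of all genes was itself -0.49. *Gimap4* (-1.23) and *Gimap7* (-1.06) were then lower by more than 2-fold, as were 5.35% of all genes.

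The libraries differed in the depth of their cells, so the members were also compared among cells of like depth. Kept cells under 1500 UMIs were in no bin. The shallowest kept cell had 510 UMIs in unstimulated WT, 709 in stimulated WT and 1493 in IFT20-KO. IFT20-KO cells with 1500 to under 3000 UMIs numbered 5501, against 1583 in stimulated WT and 510 in unstimulated WT. Cells with 12000 or more UMIs numbered 3408, 5082 and 62, respectively. *Gimap4* was lower in IFT20-KO than in WT cells in each of the 4 bins, with log2 ratios of -0.20, -0.77, -0.60 and -0.69 from the shallowest to the deepest. *Gimap7* was lower in each bin too, at -0.37, -0.80, -0.77 and -0.54. *Gimap8*, whose pooled CPM was higher in IFT20-KO cells, had a ratio of -0.35 in the shallowest bin and -0.17 in the deepest, and the intervals of the 2 bins between included 0. The level of *Gimap8* varied with depth within a library, as stimulated WT cells had 90.2 CPM in the shallowest bin and 26.7 CPM in the deepest. *Gimap5* and *Gimap9* were higher in IFT20-KO cells only in the shallowest bin, at 0.45 and 0.43. The summed members were at -0.02 [-0.07, 0.03] in that bin, which held 39.5% of the IFT20-KO cells.

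The ratio of *Gimap5* between stimulated and unstimulated WT cells also varied with depth. In cells with 12000 or more UMIs it was 1.29, in those with 6000 to under 12000 UMIs 1.13 and in those with 3000 to under 6000 UMIs 0.78. In cells with 1500 to under 3000 UMIs it was -0.37 [-0.65, -0.09], so the higher level was not present in the stimulated cells of the shallowest bin. *Gimap5* stood at 98.9 CPM in those shallow stimulated WT cells and 135 CPM in the IFT20-KO cells of the same bin. *Gimap4*, *Gimap6*, *Gimap7*, *Gimap8*, *Gimap3*, *Gimap1* and *Gimap9* had a ratio below 0 in each of the 4 bins, but its size varied. At 3000 to under 6000 UMIs only *Gimap4* was lower by 2-fold or more (*Gimap6* -0.80, *Gimap7* -0.57, *Gimap8* -0.71). At 6000 to under 12000 UMIs only *Gimap4* and *Gimap8* were (*Gimap6* -0.79, *Gimap7* -0.54), and *Gimap9* was at -0.03 [-0.13, 0.07]. In the deepest bin *Gimap4*, *Gimap6*, *Gimap7* and *Gimap8* were, and in the shallowest *Gimap9* in place of *Gimap8*. The share of all genes past 2-fold was not counted within a bin, so these counts of members have no background beside them.

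**Figure D3:**
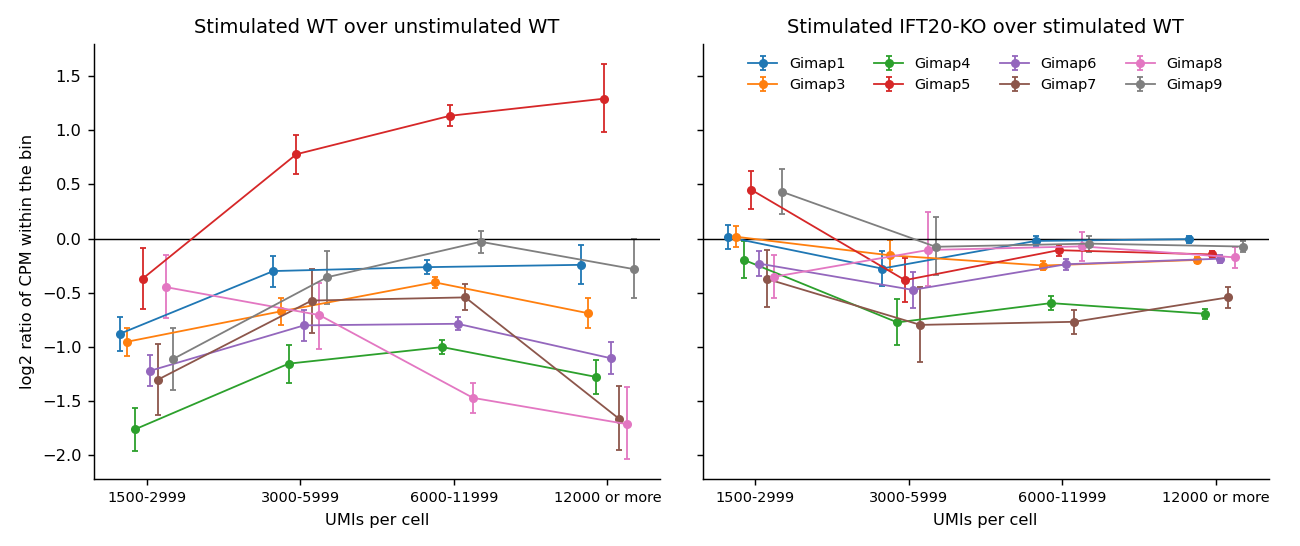
Log2 ratio of CPM for each member among cells of like depth, in 4 bins of UMIs per cell, with exact 95% intervals, for stimulated over unstimulated WT cells (left) and IFT20-KO over WT cells (right). *Gimap5* is above 0 on the left in the 3 deeper bins and below 0 in the shallowest, and *Gimap4* and *Gimap7* are below 0 on the right in all 4.

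The members varied among themselves inside a library as well. In unstimulated WT cells, 343 cells had a UMI of *Foxp3*, the transcription factor of regulatory T cells. These cells had 172 CPM of *Gimap7*, against 97.3 CPM in cells without one (log2 ratio 0.82 [0.64, 1.00]). *Gimap8* (0.41), *Gimap5* (0.31), *Gimap3* (0.28) and *Gimap4* (0.17) were also higher in the *Foxp3* cells. *Gimap6* (-0.02), *Gimap1* (0.10) and *Gimap9* (0.05) had intervals that included 0. After thinning, the *Gimap7* ratio was 0.80 and the *Gimap3* ratio 0.49 over 153 cells with *Foxp3*. The thinned intervals of *Gimap8* (0.54), *Gimap5* (0.43) and *Gimap4* (0.06) included 0. *Gimap7* was also higher in the 32 cells with a UMI of *S100a4*, another marker set beforehand, at 0.96 [0.41, 1.46]. Its higher level was thus not particular to the *Foxp3* cells. Over 21 thinned cells with *S100a4* the *Gimap7* ratio was -0.57 [-3.62, 1.29]. Gates on *Cd69* and *Ly6c1*, which vary among naïve cells, gave ratios between -0.24 and 0.03 for all 8 members.

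In stimulated WT cells *Gimap7* was higher in cells that had a UMI of a gene of resting T cells. Cells with a UMI of *Klf2*, a transcription factor of resting T cells, had 58.5 CPM of *Gimap7* and those without had 30.7 CPM (log2 ratio 0.93). In IFT20-KO cells the levels were 39.5 CPM and 26.0 CPM (0.60). *Gimap5* was lower in the cells with *Klf2* in both libraries (-0.20 in WT and -0.14 in IFT20-KO cells), opposite to *Gimap7*. Cells with a UMI of *Klf2* had a median of 12479 UMIs in WT and 8869 in IFT20-KO, against 11965.5 and 3302 in cells without. The part of depth in the ratios was not tested beyond thinning, after which the *Gimap7* ratios were 0.94 in WT and 0.30 in IFT20-KO cells. Thinning did not make the original depth of the compared cells equal. Cells with a *Klf2* UMI after thinning had an original median of 10021 UMIs in WT and 3384.5 in IFT20-KO. Cells without had 12867 and 5946.5. For *Il7r*, a gene of resting T cells set as a marker before *Klf2* was added, the *Gimap7* ratio was 0.60 [0.44, 0.76] in WT. In IFT20-KO cells it was 0.15 [-0.10, 0.40], an interval that included 0. *Tbx21*, another marker set beforehand, had a UMI in 890 WT and 131 IFT20-KO cells. *Gimap7* was higher in those cells too, at 0.36 [0.24, 0.47] in WT and 0.31 [-0.09, 0.69] in IFT20-KO. The summed members were at 0.07 in WT and 0.13 in IFT20-KO cells for *Tbx21*. In WT, *Gimap1* (-0.11) and *Gimap6* (-0.03) were below 0.

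Cells with a UMI of *Il2*, the cytokine of activated T cells, had lower levels of all 8 members in both stimulated libraries. The summed members had a log2 ratio of -0.29 in WT and -0.25 in IFT20-KO cells. *Gimap7* differed the most in WT, with 22.0 CPM in cells with *Il2* and 47.6 CPM in cells without (-1.11), and by -0.48 in IFT20-KO cells. In thinned cells these ratios were -0.67 [-1.25, -0.14] and -0.00 [-0.51, 0.47]. The original depth still differed there. Thinned cells with *Il2* had an original median of 14742 UMIs in WT and 3635.5 in IFT20-KO, against 12362 and 5248 in those without. *Gimap3* was at -0.41 in WT and -0.38 in IFT20-KO cells, and *Gimap5* at -0.08 and -0.09. Gates on *Cd69* and *Il2ra*, other genes of activated T cells, did not give lower levels of all members. The summed members were at 0.02 in WT and -0.02 in IFT20-KO cells for *Cd69*, and at -0.10 and -0.09 for *Il2ra*. *Gimap5* was higher in cells with *Cd69* (0.42 and 0.31) and in cells with *Il2ra* (0.14 and 0.16). Cells with a UMI of *Mki67*, a gene of dividing cells, were lower for the summed members by a log2 ratio of -0.25 in WT and -0.16 in IFT20-KO cells. Cells with *Il2* had a median of 15481 UMIs in WT and 9953 in IFT20-KO, against 11584 and 4144 in cells without. For *Mki67* these were 16166 and 4659, against 12060 and 5065. The part of depth in the ratios of this paragraph was not tested beyond the thinned values given.

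**Figure D4:**
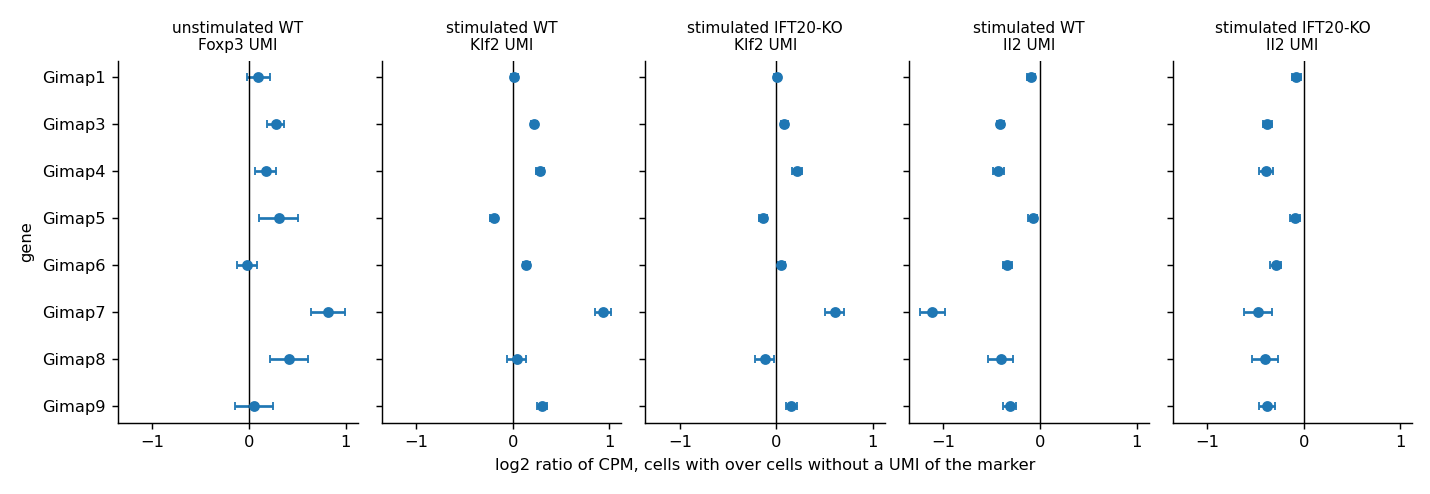
Log2 ratio of CPM between cells with and cells without a UMI of *Foxp3* (unstimulated WT), *Klf2* and *Il2* (both stimulated libraries) for each member, with exact 95% intervals. *Gimap7* is the member farthest above 0 for *Foxp3* and *Klf2* and the farthest below 0 for *Il2*.

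For most pairs of members, a cell with a UMI of the first had a slightly higher share with a UMI of the second than a cell without. At 1400 UMIs per cell, an unstimulated WT cell had UMIs of 2.38 members on average, a stimulated WT cell of 1.57 and an IFT20-KO cell of 1.46. No member was found in 5.96% of unstimulated WT, 19.2% of stimulated WT and 19.9% of IFT20-KO cells. Over the 56 ordered pairs of members, the share of cells with the second was a median of 1.06 times as high among cells with the first as among cells without in unstimulated WT cells, 1.12 times in stimulated WT and 1.06 times in IFT20-KO cells. The ratio was above 1 in 50, 54 and 44 of the 56 ordered pairs, respectively. Each pair is counted in both orders, which always fall on the same side of 1. Pairs of other genes were not compared, so whether these ratios are particular to the family was not tested. The highest ratios, with *Gimap7* in each of the 3 pairs, were 1.33 (*Gimap7* in cells with *Gimap3*, unstimulated WT), 1.46 (*Gimap8* in cells with *Gimap7*, stimulated WT) and 1.47 (*Gimap7* in cells with *Gimap4*, IFT20-KO). The variance of the family's UMIs per thinned cell was 1.30, 1.26 and 1.16 times the mean, where Poisson counts from equal cells have a ratio of 1.

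Neighbouring genes of the cluster differed in direction. *Gimap5* lies between *Gimap1* (log2 ratio of stimulated to unstimulated WT -0.46) and *Gimap3* (-0.91), which were both lower. Of the 5 nearest protein-coding genes with at least 10 UMIs on each side, *Repin1* (1.76), *Malsu1* (0.93) and *Igf2bp3* (1.14) were higher in stimulated WT cells. *Tmem176b* (-2.81), *Tmem176a* (-2.87), *Gpnmb* (-3.42), *Rarres2* (-0.94), *Zfp775* (-0.79), *Lrrc61* (-0.55) and *AI854703* (-0.06) had ratios below 0. All of these but *Malsu1* were under 14 CPM in both WT libraries. The intervals of *Rarres2* [-1.96, 0.13] and *AI854703* [-0.35, 0.24] included 0. Of the higher genes, *Malsu1* and *Igf2bp3* lie 303 and 314 kb from the cluster. *Repin1* lies 48.2 kb from it and had 20 UMIs in unstimulated WT. The cluster was thus flanked by genes of both directions, with *Repin1* the only higher one nearby.

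**Figure D5:**
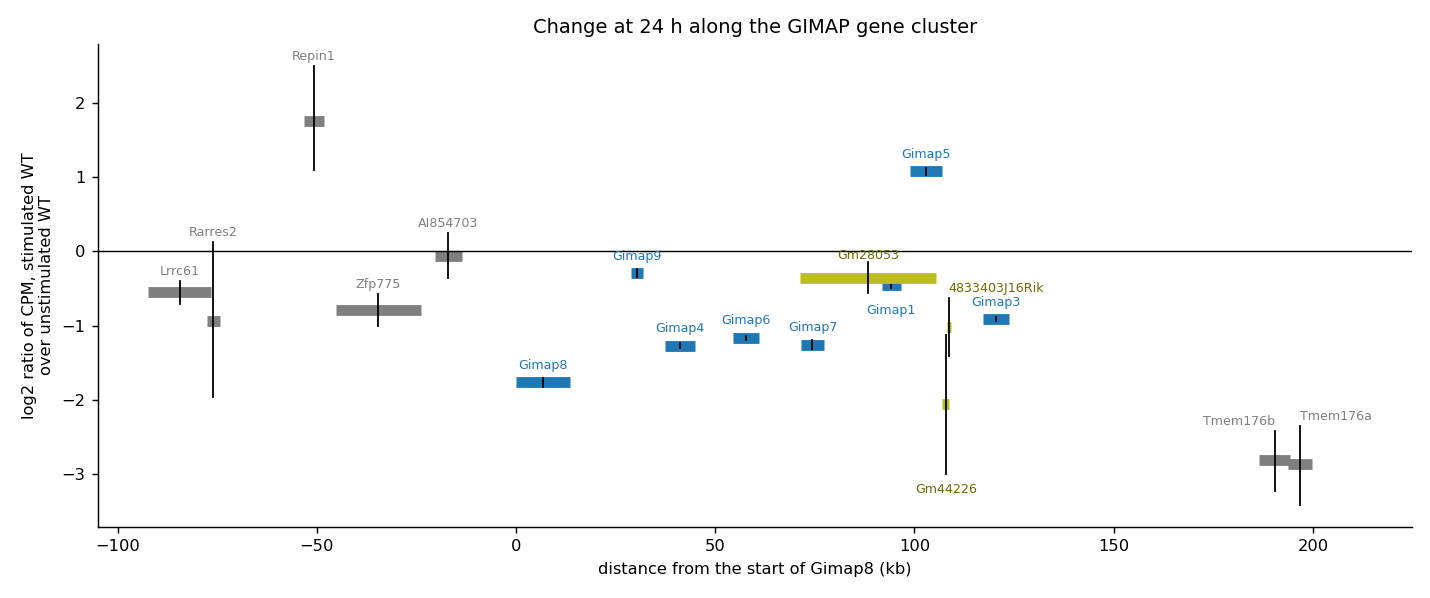
Log2 ratio of CPM of stimulated over unstimulated WT cells (vertical axis) against position in kb from the start of *Gimap8* (horizontal axis). Bars span each gene, vertical lines are exact 95% intervals, members are blue, other genes of the cluster olive and flanking genes within 100 kb grey. *Gimap5* sits above 0 between members that sit below 0.

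Some reads of the cluster could belong to more than 1 gene. *Gm28053*, a protein-coding model of the forward strand (chr6:48718607-48752644, GRCm38), shares 81 exonic bases with *Gimap7*, 198 with *Gimap1* and 153 with *Gimap5* on the same strand, and had 7.19, 5.62 and 4.94 CPM in the 3 libraries. Cell Ranger does not count a read that fits 2 genes, so reads from these stretches are missing from the levels of both genes. All 81 bases shared with *Gimap7* lie in its first exons, as do 100 of those shared with *Gimap1* and none of those shared with *Gimap5*. How far this lowered a level, which depends on the end of the transcript that was read, was not tested. Of the 50-base stretches of *Gimap5*, 4.53% also occur in *Gimap3* transcripts, and of those of *Gimap3*, 7.52% occur in *Gimap5*. *Gimap4*, *Gimap8* and *Gimap9* had no 50-base stretch shared with another gene. The non-coding genes *Gm44226* and *4833403J16Rik*, which lie between *Gimap5* and *Gimap3*, were under 3 CPM in each library.

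Genes whose products are known to meet GIMAP proteins, or to share their roles, were listed for comparison. Among 13 genes of GIMAP partners (ATG8-like proteins, BCL2 family proteins, *Gsk3b* and *Prkcq*), 3 were lower and 3 higher by 2-fold or more in stimulated than unstimulated WT cells, with a median log2 ratio of -0.12. Over all genes 23.0% were lower and 19.3% higher by that much, so the count of partners was near the background. *Prkcq*, a kinase of T cell receptor signaling, was at -1.42 and *Bcl2*, which encodes a survival protein, at -1.06. *Gabarapl1*, an ATG8-like gene, was at 3.72 and *Bcl2l1*, which encodes the survival protein BCL-XL, at 1.81. *Gabarapl2*, the gene of the partner of GIMAP6, was at -0.13.

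Septins are GTPases of the cytoskeleton, a family related in fold and listed for comparison. Of the 13 septin genes, 9 reached 10 UMIs over both WT libraries, of which 3 were lower and 3 higher by 2-fold or more (median -0.66, with 23.0% of all genes lower and 19.3% higher). The lowest were *Sept4* (-2.90, from 19 and 8 UMIs) and *Sept9* (-1.14), and the highest *Sept11* (1.70) and *Sept7* (1.40). Of 18 genes tied to T cell quiescence, 14 were lower and none higher by 2-fold or more, against the same 23.0% and 19.3% of all genes (median -2.06), from *Il7r*, the receptor for the survival cytokine IL-7 (-6.45), and *S1pr1*, the receptor for egress from lymphoid organs (-5.05), to *Slfn2* (0.24) and *Bach2* (0.42). The median of the GIMAP members, -1.04, lay between that of the quiescence genes and that of all genes.

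Between IFT20-KO and stimulated WT cells, none of the 13 partner genes and none of the 18 quiescence genes differed by 2-fold or more. Their median log2 ratios were 0.04 and 0.14, where all genes had 0.14. *Bak1*, which encodes a protein that opens the mitochondrial outer membrane, was at -0.34 and *Bax*, its relative, at -0.15, and the highest partners were *Bcl2* (0.27) and *Gsk3b* (0.39). Of the quiescence genes *Klf2* was at -0.21, and *S1pr1* (0.38) and *Txnip* (0.40) were the highest. Among the septins only *Sept4* passed 2-fold (2.14, from 8 and 32 UMIs), and the median was 0.16.

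The genes most like the summed GIMAP level were sought over 9 groups of cells without overlap. In unstimulated WT these were cells with *Foxp3*, 24 cells with *S100a4* but not *Foxp3*, and the rest. In each stimulated library they were cells with *Mki67*, cells with *Il7r* but not *Mki67*, and the rest. Likeness was the smallest root mean square difference of centred log2(CPM + 1) among 3411 genes with at least 50 CPM in any library. *Wbp2* came first, at a difference of 0.07, with 108, 54.4 and 54.0 CPM in the 3 libraries. It was followed by *Ptpn18* (0.08), *Coro1a* (0.08), *Psen2* (0.08), *Rpl27* (0.09), *Cnn2* (0.09), *Rap2b* (0.09), *Cox7a2l* (0.09), *Rpl37a* (0.09) and *Cdc42se1* (0.10). *Coro1a* encodes an actin-binding protein of leukocytes, and *Rpl27* and *Rpl37a* encode ribosomal proteins. Among the members themselves, *Gimap1* and *Gimap9* were the closest pair (0.10) and *Gimap5* and *Gimap7* the farthest apart (1.25). For *Gimap5*, a search added after its values were seen gave *Nadk* (0.07), *Tm2d3* (0.09), *Trappc4* (0.09), *Gapdh* (0.10) and *Ecd* (0.10) as the nearest genes.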

How the data were processed

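Single-cell RNA was measured in 3 libraries, 1 per group, assigned from the sample titles. The authors aligned reads to mm10 with Cell Ranger (version 3.1.0 per the file headers) and deposited counts of UMIs per gene and called barcode, without normalization. The labels name a 5′ kit and the study's methods a 3′ kit, which decides the end of a transcript that was read. Following the study's methods, a barcode was kept if it had more than 200 genes and its mitochondrial UMIs were under 15%. UMIs were summed per library (37133949 in unstimulated WT, 116979076 in stimulated WT and 106435143 in IFT20-KO cells) and given as CPM. Intervals at the 95% level were exact Poisson for CPM, exact binomial for ratios and Clopper-Pearson for shares. Only the ratio intervals were tested, on simulated Poisson counts without variation between cells or libraries, so that test covers counting error alone. Neither a p-value nor clustering was used. Cells were grouped by a UMI of a marker, and *Klf2* was added as a marker after seeing the data. A gene at 0 in a library was set to a floor of 3 counts in counts over all genes. No doublet caller was run and no cell was removed as a doublet. The alternatives were median-ratio scaling, UMIs per cell, mean per-cell fractions, all barcodes, a stricter filter (over 1000 genes, mitochondrial UMIs under 10%), thinning to 1400 UMIs, leaving out the 6% of cells with the most UMIs or cells under 0.333 of their library's median, and, added later, cells of 3000 to under 6000 or of 12000 or more UMIs. Genes named were all members, *Ift20*, genes within the cluster, the 5 nearest expressed genes on each side, the 2 lowest and 2 highest of each list (some genes are not reported here) and the 10 genes most like the family. *Gabarapl2* and the genes nearest *Gimap5* were chosen after their values were seen. The members and lists were chosen with earlier results of these data known. Gene positions came from the GRCm38 annotation and promoters from RefSeq. Values were computed with Python 3.11.15, numpy 2.4.6, scipy 1.17.1, pandas 2.3.3 and matplotlib 3.10.9.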

Additional observations from a re-analysis of the deposited data

How the results depend on the processing

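With 1 library per group, the differences have no replicate check, and the library and the group cannot be told apart. Between unstimulated and stimulated WT cells, the antibodies and the 24 h in culture cannot be told apart either. No paired analysis was possible because each group has 1 library and the labels carry no replicate numbers. Depth per cell differed between the libraries, which limits the shares of cells with a UMI.

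The median log2 ratio of the members between stimulated and unstimulated WT cells was -0.89 under median-ratio scaling, -0.94 as the mean of per-cell fractions and -0.96 in thinned cells. Under the last 2 alternatives 3 members were lower by 2-fold or more, with *Gimap7* at -0.998. The share of all genes past 2-fold was not counted under either. *Gimap5* was at 0.93 under both, short of 2-fold. As UMIs per cell the median of the members was 0.32, with 0 members lower by 2-fold or more, against 6.40% of all genes. On that scale the log2 ratio was 0.89 for *Gimap1*, 0.44 for *Gimap3*, 0.082 for *Gimap4* and 0.19 for *Gimap6*. It was 0.10 for *Gimap7*, 1.06 for *Gimap9* and 0.61 for the summed members, so all of these were above 0. The median depth was 4627 UMIs per cell in unstimulated WT, 12167 in stimulated WT and 5014.5 in IFT20-KO. Sequencing depth and the RNA content of the cells cannot be told apart. Of the 8 members, 7 were below the median of all genes under each of the 8 alternatives. Median-ratio scaling and UMIs per cell shift all genes by the same amount, so this count could not change under either.

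Between IFT20-KO and WT cells the median of the members was -0.25 under median-ratio scaling. As UMIs per cell it was -0.74, where the median of all genes was -0.49. On that scale 2 members were lower by more than 2-fold, as were 5.35% of all genes. The median of the members was -0.18 in cells with 12000 or more UMIs and -0.33 in cells with 3000 to under 6000 UMIs. *Gimap8* was below 0 as UMIs per cell (-0.49), in cells with 12000 or more UMIs (-0.17) and in cells with 3000 to under 6000 UMIs (-0.11), and the cause was not tested. *Gimap4* lay between -1.23 (UMIs per cell) and -0.52 (thinned cells) under these alternatives, and was at -0.20 in cells with 1500 to under 3000 UMIs, where the summed members were at -0.02.

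With a minimum of 1 UMI in place of 10, 32.1% of all genes were lower and 15.3% higher by 2-fold or more after stimulation, and 6.99% and 9.40% in IFT20-KO cells. With a minimum of 200 UMIs the shares were 18.9% and 17.6%, and 0.307% and 0.999%.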
